A study of Homo sapiens with 8 samples.

Results

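The BCL2 family decides whether a cell's mitochondria release the proteins that start apoptosis. Described here are the messenger RNAs of 10 of its genes, MCL1, BCL2, BCL2L1, BCL2L11, BAX, BAK1, BBC3, PMAIP1, BMF and BID, in IMR32 neuroblastoma cells given CR31B or its vehicle. They were chosen by name, and each matched 1 of the 58787 gene identifiers in the count table. IMR32 is an established human line with amplified MYCN, labelled as wild type and as a neuroblast. CR31B is a rocaglate, a class of compounds that block eIF4A, the RNA helicase that opens 5′ leaders for translation. Both groups were cells of this line alone, left to adhere for 48 h. They then received CR31B at its IC50 (4 libraries) or 0.1% DMSO (4 libraries), and RNA was taken at 6 h. Libraries carry the replicate numbers 1 to 4 in each group, and libraries with the same number are called a pair. Both libraries of pair 1 were sequenced paired-end and the 6 libraries of pairs 2 to 4 single-end. RNA was measured, so the values say nothing of protein amounts.

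The family has 3 arms. Anti-apoptotic members (MCL1, BCL2, BCL2L1) hold the effectors BAX and BAK1 in check on the outer mitochondrial membrane. BH3-only members (BCL2L11, BBC3, PMAIP1, BMF, BID) bind the anti-apoptotic ones or act on the effectors directly, and MCL1 and the BH3-only protein PMAIP1 are both short-lived proteins whose supply depends on continued translation. In neuroblastoma, cell survival is known to rest largely on BCL2 or MCL1, with BCL2L11 and PMAIP1 among their partners.

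Total counts ranged from 43687828 to 64715535 per library. All 10 sympathetic neuroblast markers reported, HAND2, GATA3 and MYCN among them, were at 1 CPM (counts per library total, on a shared scale) or more. Their summed level was 5050 to 6630 CPM with CR31B and 4810 to 6420 CPM with DMSO. The amplified MYCN alone was at 2360 to 2908 CPM with CR31B and 2304 to 2966 CPM with DMSO, and TH at 1.77 to 3.03 CPM. Of the markers of other cell types, 0 of 4 for leukocytes, 1 of 4 for Schwann cells, 1 of 4 for fibroblasts and 1 of 3 for endothelial cells reached 1 CPM. Their summed levels were 0.328 to 0.975, 3.7 to 6.11, 19.9 to 31.7 and 1.38 to 2.09 CPM with CR31B, and 0.455 to 1.09, 2.92 to 8.5, 17.3 to 29.5 and 0.791 to 2.61 CPM with DMSO. CD3E and CDH19, defining markers of T cells and Schwann cells, were at 0. The libraries of pair 1 stood apart from the rest: 84.4% of the 16518 tested genes differed there in the direction opposite to the mean of pairs 2 to 4. Among genes called in pairs 2 to 4 this share was 98.9%. Over all genes, the mean chi-square per gene (higher where libraries differ more) between CR31B replicate 1 and the single-end libraries was 9.57 to 17.4 for DMSO and 96.5 to 146 for CR31B. For DMSO replicate 1 it was 8.43 to 21.4 against single-end CR31B and 92.3 to 112 against single-end DMSO. Each library of pair 1 was thus closest to the single-end libraries of the other label. Whether labels were exchanged, in pair 1 or in the other pairs, was not tested and no label was changed, so every direction below is that of the labels. Levels of the 10 genes are given for all 8 libraries, and their differences mainly for pairs 2 to 4, with pair 1 apart. Pair 1 is 1 library against 1 and has no replicate check, and sequencing layout and pair cannot be told apart in it.

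With all 8 libraries as labelled, 0 of the 10 family genes passed a threshold of 0.05 on the adjusted p of edgeR's quasi-likelihood test (Benjamini-Hochberg, over all tested genes). Over all genes this count was 0 of 16518, which is 0%, and 205 genes had an unadjusted p under 0.05. DESeq2 and limma voom also called 0 genes, with 263 and 219 at that unadjusted level. BBC3 was the 1 family gene with an unadjusted p under 0.05, and the levels of the groups overlapped for all 10 (over all genes, 0.66% had no overlap). Within pairs 2 to 4, 6 of the 10 passed the threshold, beside 41.3% of 16696 tested genes. The same 6 had no overlap between the single-end groups, beside 52.4% of all genes. The fit of all libraries called the same number, 6 of 10, when CR31B replicate 1, DMSO replicate 1 or both were left out. It called 0 when any other library was. That fit has a term for sequencing layout, which takes up a lone paired-end library. Leaving out 1 or both libraries of pair 1 thus in effect repeats the comparison of pairs 2 to 4 and is no separate check. BAK1, BBC3 and PMAIP1 were higher with CR31B (3 of 10, beside 23.8% of all genes), and BAX, BCL2L11 and BID were lower (3 of 10, beside 17.6%). MCL1, BCL2, BCL2L1 and BMF did not pass. In pair 1 all 10 differed in the direction opposite to the mean of pairs 2 to 4 with TMM factors. With upper quartile factors this did not hold for MCL1 and BBC3, and with total counts not for MCL1. The departure of pair 1 from the others, tested as an interaction of treatment and layout, passed for 5 of the 10, beside 42.5% of all genes. That test has 1 paired-end library per group: its spread comes from the single-end libraries alone, and the lone libraries are assumed to vary like them.

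**Figure D1:**
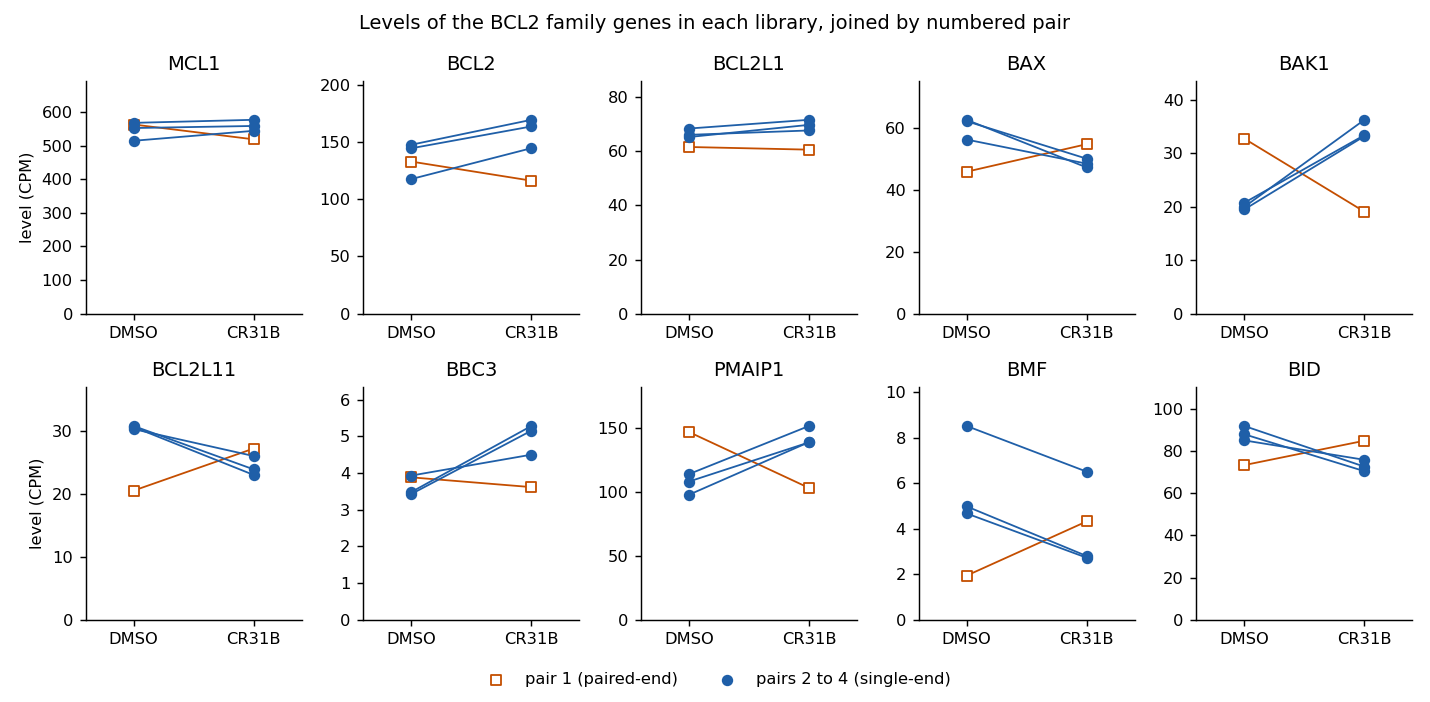
Level of each of the 10 BCL2 family genes in each library, in CPM scaled by TMM factors, with pair 1 drawn as open orange squares and pairs 2 to 4 as filled blue circles, and a line joining same-numbered libraries. The pair 1 line slopes against the other 3 in the panels of BAK1, PMAIP1, BAX, BCL2L11 and BID, whereas the MCL1 levels stay between 514 and 577 CPM.

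MCL1 (ENSG00000143384, GRCh38 chromosome 1, 150574551 to 150579738, minus strand) was the most abundant of the 10 and differed little between the groups. Its level in the libraries labelled CR31B was 518, 544, 558 and 577 CPM for replicates 1 to 4. In those labelled DMSO it was 563, 514, 552 and 567 CPM. The ranges lay over each other, and the CR31B mean of 549 ± 24.5 CPM and the DMSO mean of 549 ± 24.1 CPM (each SD, n = 4) were the same to 3 digits. The edgeR estimate for pairs 2 to 4 was 0.04 ± 0.0548 (log2, SE, n = 3 per group), adjusted p of 0.589. The 95% interval ran from -0.08 to 0.16, a change of between -5.46% and 11.9%. The sign depended on scaling and was negative with upper quartile (-0.06) and total count (-0.04) factors, in which the median of all tested genes moved from -0.01 to -0.1 and -0.08. MCL1 was not called under any of the 16 alternatives run on pairs 2 to 4, where its adjusted p ranged from 0.363 to 0.996. Pair 1 differed by -0.12 on the log2 scale with TMM factors.

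BCL2 (ENSG00000171791, chromosome 18, 63123346 to 63320128, minus strand), the founding survival member of the family, was measured at 116, 145, 164 and 169 CPM with CR31B. With DMSO it was 133, 118, 145 and 148 CPM. Both groups held a low library, replicate 1 in one and replicate 2 in the other, and they overlapped also within pairs 2 to 4. The edgeR estimate there was 0.22 ± 0.0889 (log2, SE), adjusted p of 0.0683. The differences within pairs 2, 3 and 4 were 0.3, 0.18 and 0.2 on the log2 scale, and with the replicate number as a block BCL2 passed the threshold (0.23, adjusted p of 0.000953). Offsets for GC content and length lowered the estimate to 0.08 (adjusted p of 0.477), and to 0.09 (adjusted p of 0.129) together with the block, where the call was lost. It was 0.13 with upper quartile factors and without DMSO replicate 2, and 0.14 with total count factors. Over the 16 alternatives its adjusted p ranged from 0.000953 to 0.477, and 5 of them called it, those without CR31B replicate 2 (0.29, adjusted p of 0.0268) or DMSO replicate 4 (0.29, adjusted p of 0.0416) included. Pair 1 differed by -0.19.

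BCL2L1 (ENSG00000171552, chromosome 20, 31664452 to 31723989, minus strand), which encodes the survival protein BCL-XL, varied little. CR31B libraries held 60.7, 71.7, 69.8 and 67.8 CPM, and DMSO libraries 61.6, 68.5, 65.3 and 66.1 CPM. Replicate 1 was the lowest in either group, and pair 1 differed by -0.02 on the log2 scale. Within pairs 2 to 4 the edgeR estimate was 0.07 ± 0.0489 (log2, SE), with an interval from -0.04 to 0.18 and an adjusted p of 0.299. It was -0.03 with upper quartile and -0.01 with total count factors, and passed in 1 of 16 alternatives (the replicate block with offsets for GC content and length, 0.13, adjusted p of 0.0211). Of its exon bases 43% also lie in the antisense gene ABALON, and it shares none on its own strand. The word reverse in the name of the deposited table may mean counting on the reverse strand, which would separate the 2 genes, but no label or header states it, so the BCL2L1 value is uncertain to that extent.

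Of the other survival genes of the family, BCL2L2, which encodes BCL-W, was 27.7, 34.7, 38.5 and 38.3 CPM with CR31B and 31, 31.5, 32.9 and 31.7 CPM with DMSO. It was higher with CR31B in pairs 2 to 4 by 0.22 ± 0.0609 (SE) on the log2 scale, with an adjusted p of 0.016 in edgeR. The call was lost with upper quartile (0.12) and total count (0.14) factors and without CR31B replicate 4 (0.2, adjusted p of 0.0648) or DMSO replicate 2 (0.2, adjusted p of 0.0526). It shares 19.4% of its exon bases with a gene on the same strand, so part of its count is uncertain. BCL2A1 gave 2 counts over the 8 libraries and BCL2L10 gave 0, where 3 counts in the smallest library correspond to 0.0687 CPM.

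The effectors moved in opposite directions in pairs 2 to 4, BAK1 higher and BAX lower. BAK1 (ENSG00000030110, chromosome 6, 33572547 to 33580293, minus strand) was 19.1, 33.4, 33.2 and 36.3 CPM in the CR31B libraries. In the DMSO libraries it was 32.8, 20.7, 19.5 and 20 CPM. The 3 single-end CR31B libraries and DMSO replicate 1 were high, and the other 4 were low. The fold in pairs 2 to 4 was 1.71 (log2 0.77 ± 0.0634, SE, adjusted p of 8.22e-06 in edgeR, higher in 3 of 3 pairs), and in pair 1 the difference was -0.78. The interaction was -1.55 on the log2 scale with an adjusted p of 8.81e-06. With all 8 libraries the edgeR estimate was 0.4 ± 0.247 (SE), adjusted p of 0.707. These are bulk samples, in which fewer cells with an RNA and less of it per cell cannot be told apart.

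BAX (ENSG00000087088, chromosome 19, 48954815 to 48961798, plus strand) was 54.8, 50.1, 48.5 and 47.3 CPM with CR31B. With DMSO it was 45.9, 62.3, 56.3 and 62.7 CPM. The lowest of all 8 values was DMSO replicate 1, and in the single-end libraries every CR31B value lay below every DMSO value. BAX was lower by 19.4% in pairs 2 to 4 (log2 -0.31 ± 0.0581, SE, adjusted p of 0.0017 in edgeR, lower in 3 of 3 pairs). Pair 1 differed by 0.26, and the interaction was 0.57 with an adjusted p of 0.00301. BOK, the remaining effector of the family, gave 2 counts in all.

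Because the effectors changed in opposite directions, their ratio within a library, which needs no scaling between libraries, was taken per kilobase of merged exon. The BAK1 to BAX ratio was 0.407, 0.779, 0.8 and 0.897 with CR31B and 0.834, 0.39, 0.404 and 0.372 with DMSO. For pairs 2 to 4 it was 0.825 ± 0.063 (SD, n = 3) against 0.389 ± 0.016 (SD, n = 3), with no overlap. The ratio was taken because the 2 genes had been called in opposite directions in the same libraries. It describes those calls, and no test of it is reported.

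**Figure D2:**
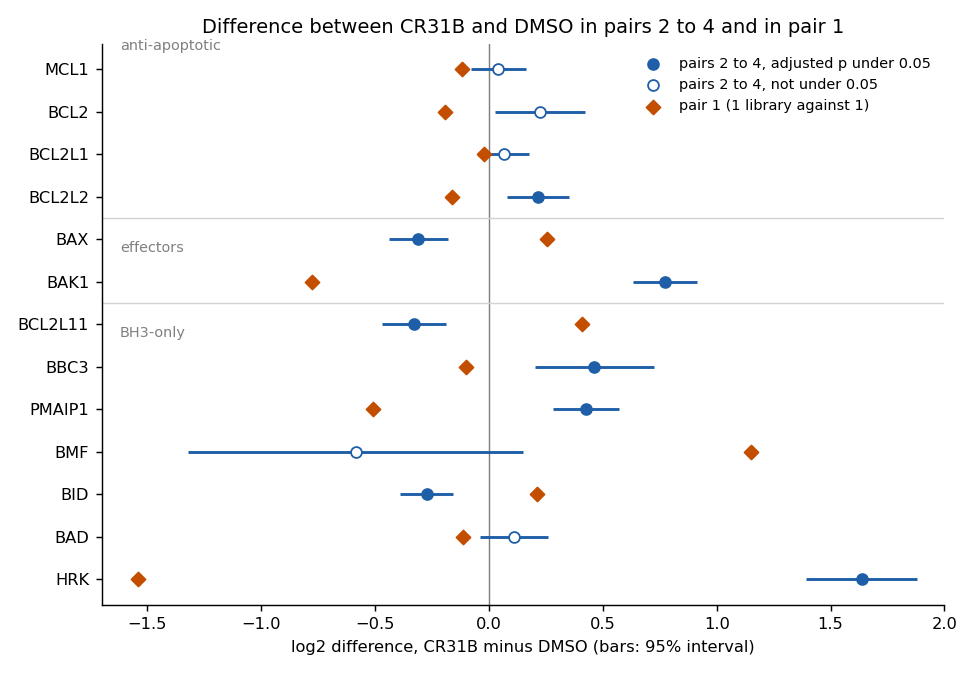
Log2 difference between CR31B and DMSO for 13 tested family genes by role, as the edgeR estimate with its 95% interval for pairs 2 to 4 (filled circles where the adjusted p is under 0.05, open circles otherwise) and as the single difference of pair 1 (orange diamonds). With TMM factors the diamonds lie across zero from the circles for all 13 (of the 10, not for MCL1 and BBC3 with upper quartile factors nor for MCL1 with total counts), BAK1 at 0.77 against -0.78 and HRK at 1.64 against -1.54 among them.

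The BH3-only genes divided: PMAIP1 and BBC3 were called higher in pairs 2 to 4, and BCL2L11 and BID lower. BMF was lower within each of these pairs, but its call depended on the fit. PMAIP1 (ENSG00000141682, chromosome 18, 59899948 to 59904306, plus strand) encodes NOXA, a partner of MCL1. It was 103, 139, 139 and 151 CPM with CR31B and 147, 108, 97.6 and 114 CPM with DMSO. As with BAK1, DMSO replicate 1 stood with the single-end CR31B libraries and CR31B replicate 1 with the single-end DMSO libraries. The fold in pairs 2 to 4 was 1.34 (log2 0.43 ± 0.0651, SE, adjusted p of 0.000485 in edgeR, higher in 3 of 3 pairs), and pair 1 differed by -0.51. The interaction was -0.94 with an adjusted p of 0.000271.

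BBC3 (ENSG00000105327, chromosome 19, 47220822 to 47232766, minus strand) encodes PUMA, a p53-induced BH3-only protein. It was low, at 3.62, 4.5, 5.28 and 5.15 CPM with CR31B and 3.88, 3.93, 3.48 and 3.43 CPM with DMSO. CR31B replicate 1 lay among the DMSO values, and the other 3 CR31B libraries lay above all DMSO libraries. It was higher in pairs 2 to 4 by 0.46 ± 0.117 (SE) on the log2 scale (adjusted p of 0.00944 in edgeR). The difference was 0.2 in pair 2 and 0.6 and 0.59 in pairs 3 and 4, against -0.1 in pair 1. The interaction did not pass (-0.56, adjusted p of 0.0846).

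BCL2L11 (ENSG00000153094, chromosome 2, 111119378 to 111168447, plus strand) encodes BIM, which binds all the main survival proteins. Its level was 27.2, 26, 23 and 23.9 CPM with CR31B and 20.5, 30.3, 30.6 and 30.8 CPM with DMSO. The 3 single-end DMSO libraries were nearly level, and DMSO replicate 1 was the lowest of all 8. BCL2L11 was lower in pairs 2 to 4 by 20.4% (log2 -0.33 ± 0.0639, SE, adjusted p of 0.00211 in edgeR), lower in 3 of 3 pairs. Pair 1 differed by 0.41, and the interaction was 0.74 (adjusted p of 0.00122). Of its exon bases 10.9% lie in a gene on the other strand, MIR4435-2HG.

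BID (ENSG00000015475, chromosome 22, 17734138 to 17774770, minus strand) links death receptors to the mitochondrion once it is cut by caspase 8. It was 84.8, 75.7, 70.3 and 72.5 CPM with CR31B and 73.2, 84.9, 87.8 and 91.7 CPM with DMSO. In the single-end libraries the groups did not overlap. BID was lower there by 17.3% (log2 -0.27 ± 0.0524, SE, adjusted p of 0.00197 in edgeR, lower in 3 of 3 pairs). Pair 1 differed by 0.21. The interaction was 0.49 (adjusted p of 0.00399).

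BMF (ENSG00000104081, chromosome 15, 40087890 to 40108892, minus strand), a BH3-only protein known for its link to the cytoskeleton, was the most uneven of the 10. CR31B libraries held 4.32, 2.73, 6.51 and 2.8 CPM, and DMSO libraries 1.94, 4.67, 8.52 and 4.98 CPM. Replicate 3 was the highest in both groups, so the spread between replicates was as wide as the difference. The estimate for pairs 2 to 4 was -0.58 ± 0.33 (log2, SE), with an interval from -1.32 to 0.15 and an adjusted p of 0.186 in edgeR. With the replicate number as a block, which takes out that shared height, it was -0.62 with an adjusted p of 0.000917. Over the 16 alternatives it ranged from -1.14 without CR31B replicate 3 (adjusted p of 0.00414) to -0.26 without DMSO replicate 3 (adjusted p of 0.585). Of these alternatives 4 called it. The differences within pairs 2, 3 and 4 were -0.77, -0.39 and -0.83 on the log2 scale, and pair 1 differed by 1.15. BMF-AS1, on the other strand, covers 8.46% of its exon bases.

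Among the BH3-only genes outside the 10, HRK (harakiri), a BH3-only gene known from dying neurons, differed more than any of the 10. It was 7.76, 16.4, 15.8 and 15.3 CPM with CR31B and 22.7, 5.84, 5.09 and 4.34 CPM with DMSO. The fold in pairs 2 to 4 was 3.12 (log2 1.64 ± 0.109, SE, adjusted p of 2.7e-06 in edgeR), and pair 1 differed by -1.54. BAD was not called (0.11, adjusted p of 0.217), and BIK gave 16 counts over the 8 libraries and was not tested. Of the 8 BH3-only genes of the family list, 7 were tested and 5 passed in pairs 2 to 4 (beside 41.3% of all genes), 3 higher and 2 lower, with a median log2 fold change of 0.11 beside -0.01 over all tested genes.

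Set against MCL1 within each library, PMAIP1 and BCL2L11 went opposite ways. The MCL1 to PMAIP1 ratio per kilobase was 2.57, 2.01, 2.06 and 1.95 with CR31B and 1.96, 2.44, 2.89 and 2.55 with DMSO. For pairs 2 to 4 this was 2 ± 0.0549 (SD, n = 3) against 2.63 ± 0.238 (SD, n = 3). The MCL1 to BCL2L11 ratio was 35.2 ± 2.89 (SD, n = 3) against 27.1 ± 1.15 (SD, n = 3). The BCL2 to BAX ratio was 0.721 ± 0.0787 against 0.499 ± 0.0761 (each SD, n = 3). These ratios describe the same values, in which PMAIP1, BCL2L11 and BAX were called and MCL1 and BCL2 were not, and no test of them is reported. In each the single-end groups did not overlap, and pair 1 ran the other way.

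**Figure D3:**
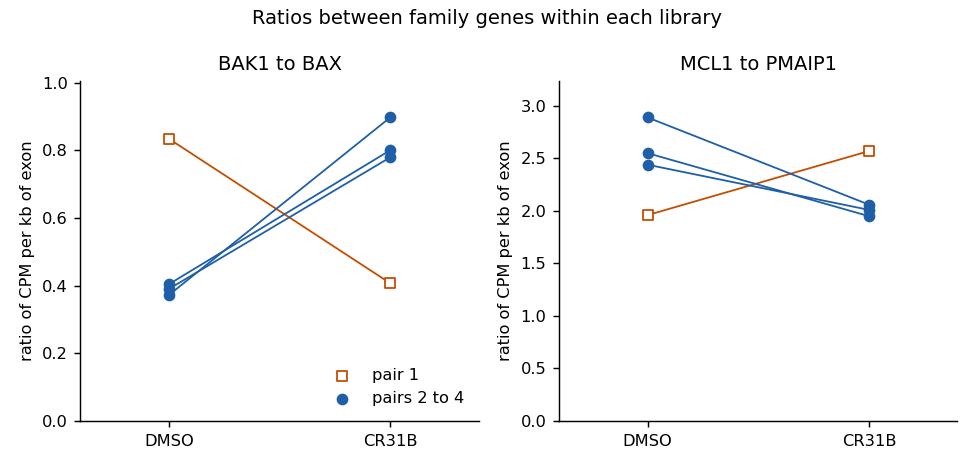
Ratio of BAK1 to BAX and of MCL1 to PMAIP1 in each library, from CPM per kilobase of merged exon on an axis from 0, with a line joining same-numbered libraries. In pairs 2 to 4 the BAK1 to BAX ratio goes from about 0.389 to 0.825 and the MCL1 to PMAIP1 ratio from 2.63 to 2, while the open squares of pair 1 run the other way.

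Levels of different genes were compared per length, as CPM per kilobase of merged exon over the 8 libraries. MCL1 stood first with a median of 127 (range 118 to 132), and PMAIP1 was next with 56.4 (43.7 to 67.7). BAX (20.3), BCL2L1 (20.2) and BID (18.1) followed, then BCL2 (12.3) and BAK1 (12.1), BCL2L11 (4), BBC3 (1.23) and BMF (0.826). In this order the ranges of BAX and BCL2L1, of BCL2L1 and BID, of BCL2 and BAK1, and of BBC3 and BMF overlapped over the 8 libraries. Within libraries, BAK1 lay above BCL2 and BCL2L1 above BAX in CR31B replicates 2 to 4 and DMSO replicate 1. Both orders were reversed in all other libraries. The other neighbours were separated in all 8 libraries. MCL1 RNA was thus the most abundant survival transcript per length in these cells, with a lowest library (118) above the highest of BCL2L1 (21.6) and BCL2 (14.4).

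**Figure D4:**
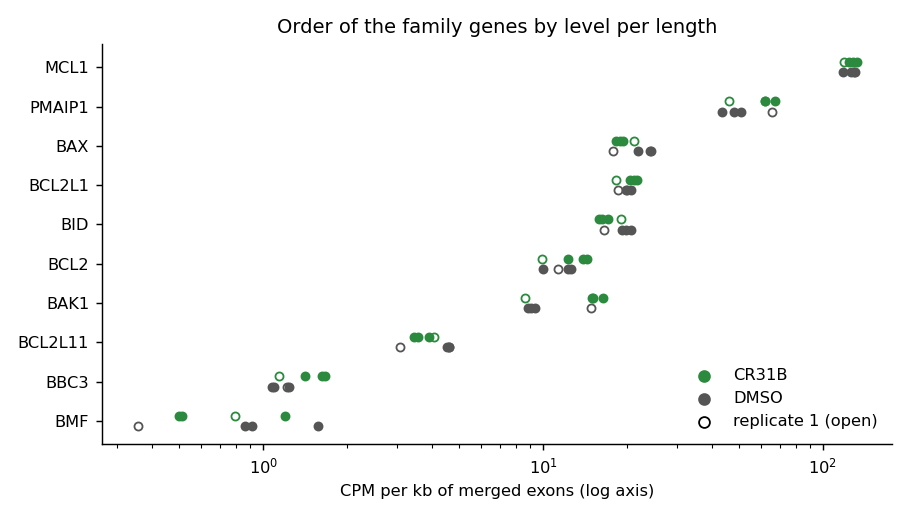
CPM per kilobase of merged exon of the 10 genes in each library on a log axis, ordered by median. MCL1 (median 127) and PMAIP1 (56.4) lie above the rest and BMF (0.826) is the lowest, with overlapping points for BAX and BCL2L1 and for BCL2 and BAK1.

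The length and base makeup of the 5′ leader, the stretch that eIF4A unwinds, were read from the principal GENCODE transcript of each gene. BCL2 had the longest of the 10, 1462 bases, at the 99.1 percentile of 18882 coding genes, and its longest run of purines was 18 bases (95.9 percentile). Rocaglates are known to clamp eIF4A on purine runs. MCL1 had a leader of 60 bases (14.7 percentile) with a longest purine run of 6 bases (21.8 percentile). BAX had 52 bases, 88.5% of them G or C, at the 99 percentile for GC content. BAK1 had 249 bases with a longest purine run of 5 bases (11.4 percentile). The other 6 leaders were 230 to 411 bases, against a median of 190 over all coding genes. The percentiles of the purine runs were not matched for leader length, and a longer leader has more room for a long run. Which leaders IMR32 cells use was not measured. These features describe the annotated transcripts and were not tested against the RNA values.

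The promoters of PMAIP1, BBC3 and BAX are shown as examples. These genes were called in pairs 2 to 4 and hold matches to motifs of stress-related or MYC-family factors. BID meets both conditions too but is not printed, and HRK is shown for its fold. Of the 10 genes, 9 matched a promoter window in the RefSeq table (GRCh38.p14), and MCL1 did not. Windows run from 250 bases before to 50 after the start. The motifs searched on both strands were TGACG (a cyclic AMP response element's core), TGATGNAA (core of the composite CHOP and ATF4 element), TGANTCA (AP-1 site) and CACGTG (E-box). They occur in 24.6%, 3.62%, 7.71% and 7.26% of 35116 windows. Each stretch below is the 150 bases before the GENCODE gene start, in the direction of the gene, with motif matches on either strand in capitals.
PMAIP1, chr18:59899798-59899947, plus strand: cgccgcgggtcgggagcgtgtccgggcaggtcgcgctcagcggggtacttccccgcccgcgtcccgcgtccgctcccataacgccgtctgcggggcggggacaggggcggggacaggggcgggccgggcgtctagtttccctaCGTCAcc
BBC3, chr19:47232767-47232916, minus strand: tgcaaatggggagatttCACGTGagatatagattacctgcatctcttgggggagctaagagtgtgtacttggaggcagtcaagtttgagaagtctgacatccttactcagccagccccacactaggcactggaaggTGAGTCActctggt
BAX, chr19:48954665-48954814, plus strand: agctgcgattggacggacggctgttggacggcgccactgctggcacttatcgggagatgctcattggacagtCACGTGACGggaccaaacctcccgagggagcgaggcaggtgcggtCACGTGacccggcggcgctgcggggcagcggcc
HRK, chr12:116881442-116881591, minus strand: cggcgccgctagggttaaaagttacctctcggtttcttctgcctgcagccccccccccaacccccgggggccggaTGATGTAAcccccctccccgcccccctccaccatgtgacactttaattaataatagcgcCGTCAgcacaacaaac

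The BAX window held 4 E-boxes, 2 of them in the stretch printed, and 5 of the 35116 windows (0.0142%) held 4 or more. Its first E-box overlaps a TGACG match. The PMAIP1 stretch holds TGACG on the opposite strand close to the start. HRK holds TGATGNAA and TGACG, and BBC3 an AP-1 site and an E-box. Of the other genes, BCL2, BCL2L1 and BMF had a TGACG match and BID a CACGTG match, whereas the BAK1 and BCL2L11 windows had none of the 4. A match names letters in a window, not a bound site.

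The genes around the family were taken from lists of its known regulators and partners. Beside each count of genes called in pairs 2 to 4 stand the shares over all tested genes, 41.3% called, 23.8% higher and 17.6% lower. The ubiquitin ligases and deubiquitinases that set the life of MCL1 protein included 4 of 8 genes that were higher in pairs 2 to 4 and 0 that were lower, with a median log2 fold change of 0.23 beside -0.01 over all tested genes. USP9X, which removes ubiquitin from MCL1 and so spares it, was 119, 234, 253 and 267 CPM with CR31B and 239, 121, 122 and 125 CPM with DMSO. Its log2 fold change in pairs 2 to 4 was 1.04 (adjusted p of 8.76e-07 in edgeR). HUWE1 (0.69) and FBXW7 (0.65), which are subunits or enzymes of ligases that mark MCL1 for degradation, were also called. So the called members included both a deubiquitinase and ligases. The count was 3 higher and 1 lower with upper quartile factors, and 4 and 1 with total count factors. With all 8 libraries 0 of 8 passed.

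Transcription factors known to act on BH3-only genes held 6 higher and 1 lower of 8 in pairs 2 to 4 (beside 23.8% and 17.6% of all genes), with a median of 0.39. With upper quartile or total count factors 5 were higher and 1 lower. JUN, which acts on HRK and BCL2L11 in neurons, was 46.4, 133, 181 and 182 CPM with CR31B and 168, 38.3, 47.4 and 48.3 CPM with DMSO. Its log2 fold change was 1.89 (adjusted p of 2.64e-06 in edgeR). FOXO3 (0.77) and FOXO1 (0.76), which act on BCL2L11 and BBC3, were called higher. In the same libraries BCL2L11 was called lower and BBC3 higher, and a link to these factors was not tested. Of 10 p53 targets outside the family, 2 were higher and 2 lower, with a median of 0.01. These 4 of 10 are near the 41.3% called over all genes, and 1 was higher and 3 lower with upper quartile or total count factors. SESN2, also a target of ATF4, had the largest change of these (1.76, adjusted p of 1.11e-06), and FDXR (-0.32) and SESN1 (-0.23) were lower.

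Downstream of the family, the apoptosome and caspase list held 2 higher and 4 lower of 13 (median -0.08), beside 23.8% higher and 17.6% lower over all genes, so 6 of 13 called is near the 41.3% of all genes. With upper quartile factors it held 1 higher and 5 lower. APAF1, the scaffold that activates caspase 9, was higher (0.56, adjusted p of 0.000103 in edgeR), and CASP6 (-0.56) and CASP2 (-0.35) were lower. Among the inhibitors of apoptosis, 2 of 5 tested were higher and 1 lower. BIRC2 was higher by 0.97 and XIAP by 0.42, whereas BIRC5 (survivin), which also serves in mitosis, was lower by 0.42 (log2 -0.42). Of 7 tested death receptor and adaptor genes 3 were higher and 0 lower, RIPK1 (0.67), TNFRSF1A (0.33) and FADD (0.18), beside 23.8% and 17.6% of all genes. With upper quartile and total count factors 1 was higher, TNFRSF1A (adjusted p of 0.0767 and 0.0629) and FADD (0.267 and 0.189) being lost. Levels in this list differed widely: TNFRSF10B was at 120 to 145 CPM, CASP8 at 0.18 to 0.5 CPM, and TNFRSF10A gave 0 counts. The BCL2-like genes of less settled role had 0 higher and 1 lower of 5 tested, BNIP3 (-0.2, adjusted p of 0.0432). Leaving out a library ended the calls of several of these: TNFRSF1A without CR31B replicate 4 or DMSO replicate 2 (adjusted p of 0.0753 and 0.0695), FDXR without CR31B replicate 2 or DMSO replicate 3 (0.0529 and 0.0595), and SESN1 without CR31B or DMSO replicate 3 or 4 (up to 0.121). The same held for FADD without replicate 2 of either group, CR31B replicate 4 or DMSO replicate 3 (up to 0.153), whose call was lost in 10 of 16 alternatives in all (adjusted p up to 0.267), and for BNIP3 without replicate 2 of either group, CR31B replicate 3 or DMSO replicate 4 (up to 0.153). Of the FADD exon bases 54.9% are shared on the other strand, so its value is uncertain in the same way as that of BCL2L1. Over all 10 lists 36 of 69 tested genes were called in pairs 2 to 4, 24 higher and 12 lower, beside 41.3% of all genes called, 23.8% higher and 17.6% lower. With upper quartile factors it was 17 higher and 15 lower, and with all 8 libraries 0 were called.

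**Figure D5:**
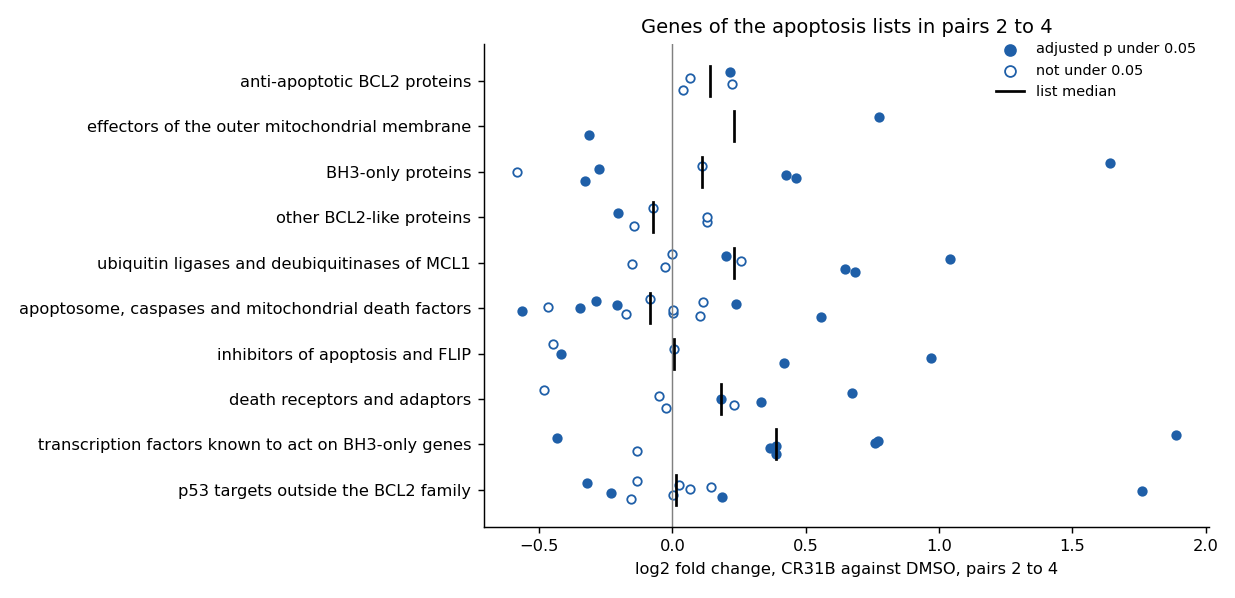
Log2 fold change in pairs 2 to 4 of every tested gene of the 10 lists, filled where the adjusted p is under 0.05, with the median of each list as a black bar. The transcription factor list has the highest median (0.39), and its points for JUN (1.89) and, in other lists, SESN2 (1.76) and HRK (1.64) lie farthest to the right.

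Genes whose pattern was most like that of 3 of the members were found by Pearson's r of log2 CPM over the 8 libraries among 10695 genes, as a description. For MCL1 they were SARM1 (0.961), MAP3K1 (0.945) and PRKAR1B (0.939). For BCL2 they were ZNF397 (0.994), PLK2 (0.993) and ADAMTS2 (0.988), and for PMAIP1 C21orf91 (0.998), SMG1 (0.995) and ABL2 (0.995). The 8 points share libraries, depth and the opposite order of pair 1. SMG1, a kinase of RNA surveillance, was 152, 222, 217 and 247 CPM with CR31B and 229, 160, 149 and 169 CPM with DMSO. It was high and low in the same libraries as PMAIP1, which follows from its choice by that likeness. BAK1, USP9X and JUN were high and low in those libraries too.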

How the data were processed

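The authors deposited unnormalised counts of the 8 libraries in 1 table, by Ensembl gene. The submitters' processing notes name FastQC 0.11.7, STAR 2.7.2b, edgeR 3.36.0, limma 3.50.3 and GRCh38, without roles; the counting tool and annotation are not given in the sources used here, and the strand setting only as far as the word reverse in the deposited table's name. Per the labels' protocols 250 ng of RNA and 15 PCR cycles were used, and no molecular identifiers are described, so counts can hold PCR copies. Of 58787 identifiers, 58515 were in GENCODE 29, which gave symbols, coordinates and lengths.

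The counts were analysed in R 4.3.3 with edgeR 4.0.16 (filterByExpr, TMM, quasi-likelihood, two-sided, Benjamini-Hochberg over all tested genes, threshold 0.05). The fit of 8 libraries had sequencing layout as a term; the fit of pairs 2 to 4 had none; another fit tested the interaction of treatment and layout. Pair differences use log2 CPM, prior count 1. All 10 family genes passed the filter. The named genes were the 10, the other family genes, in each list up to 3 called genes of largest change in pairs 2 to 4 with a mean of at least 1 CPM, and, for MCL1, BCL2 and PMAIP1, the 3 genes most alike with a mean of at least 5 CPM. The members and lists were chosen with earlier results of these data known. Alternatives used limma 3.58.1, DESeq2 1.42.0, other scalings, filters, offsets and left-out libraries. The scripts were tested on simulated data. A further marker of the neuroblast list is not reported here and was left out of the summed levels.

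No 2 libraries were copies, since the smallest mean chi-square per gene between libraries was 7.33, where 1 library drawn again gives about 1. Same-numbered single-end libraries deviated together in part (r of 0.208 in replicate 2, 0.388 in replicate 3, 0.157 in replicate 4), but no label pairs them. In all 8 libraries r was -0.527, -0.078, 0.159 and -0.108 for replicates 1 to 4, so not every pair deviated together. The series calls the replicates biological; whether they were separate cultures is not given, and p-values measure the spread between these libraries.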

Additional observations from a re-analysis of the deposited data

Results flagged for a closer look

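Among 36 named genes, 72 groups of 4 libraries were examined for a library far from the other 3, which chance gives in about 1 in 20 groups of genes not chosen by their values. Of these genes 18 were chosen for a large change in pairs 2 to 4, so that rate does not apply to them. The gap to the nearest library, as a share of the group's range, was above Dixon's 95% critical value for 4 samples in 19 groups, and replicate 1 was the distant library in 17 of them. Of the family genes these were BCL2L11 (0.951) and BAK1 (0.906) in DMSO, HRK in CR31B (0.877) and in DMSO (0.918), and, with another library distant, BAD in CR31B (0.853, replicate 2) and BCL2L15 in DMSO (0.834, replicate 3). The other groups were, in DMSO, USP9X (0.972), HUWE1 (0.906), CASP6 (0.83), APAF1 (0.907), CASP2 (0.87), BIRC2 (0.962), BIRC5 (0.849), JUN (0.923), FOXO3 (0.901) and SESN2 (0.909), and, in CR31B, CASP6 (0.939), BIRC2 (0.912) and RIPK1 (0.938).

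The difference between CR31B and DMSO departed in pair 1 from pairs 2 to 4 for 24 named genes by the interaction test (edgeR, adjusted p under 0.05, passed by 42.5% of all genes), with 1 paired-end library per group. Of the 36 named genes 18 had been chosen for a large change in pairs 2 to 4. Its log2 size, pair 1 minus pairs 2 to 4, was -1.55 for BAK1, -0.935 for PMAIP1, 0.739 for BCL2L11, 0.569 for BAX and 0.486 for BID. In the wider family it was -3.18 for HRK, -0.378 for BCL2L2 and 0.418 for BNIP3. Among the regulators of MCL1 protein it was -2.04 for USP9X, -1.42 for HUWE1 and -1.32 for FBXW7. Downstream genes gave 1.04 for CASP6, -1.14 for APAF1, 0.593 for CASP2, -1.96 for BIRC2, -0.865 for XIAP, 0.843 for BIRC5, -1.44 for RIPK1 and -0.538 for TNFRSF1A. Transcription factors and p53 targets gave -3.74 for JUN, -1.45 for FOXO3, -3.61 for SESN2, 0.676 for FDXR and 0.414 for SESN1.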

How the results depend on the processing

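In pairs 2 to 4, BAK1, BBC3, PMAIP1, BAX, BCL2L11 and BID were called in the same direction under all 16 alternatives run, and 6 to 8 of the 10 family genes were called. No label pairs these libraries, and same-numbered ones deviated together only in part (r of 0.157 to 0.388), so calls made only with the replicate block rest on an assumed pairing. With the block BCL2 (0.23), BMF (-0.62) and BCL2L13 (0.13) were called too. BCL2 (0.09) was not called with GC and length offsets added, and BCL2L13 under none of the other 15 alternatives. The block ended no call of a named family gene. Genes called lower in pairs 2 to 4 rose from 2933 to 4509 with upper quartile scaling and to 4526 with the block and GC and length offsets, and the higher share of calls fell from 57.5% to 40% and 47.2% (43.1% with total counts, 49.4% with the offsets alone). Signs turned for MCL1 (-0.0553 and -0.0379 with upper quartile and total counts) and BCL2L1 (-0.0276 and -0.0101), and for BCL2L15 with the offsets (-0.0157) and with block and offsets (-0.0145). With all 8 libraries, MCL1 (-5.93e-05) turned to 0.000449 with voom, 0.00055 with the block and 0.000555 without the layout term, and BCL2L15 to -0.0335 and -0.0363 with the offsets, alone and with the block. With libraries left out, the fit of 8 ranged from 0 to 6920 genes and from 0 to 6 family genes called. All calls came without replicate 1 of CR31B (6920 genes), of DMSO (6906) or both (6901). These fits in effect repeat that of pairs 2 to 4, since the layout term takes up a lone paired-end library. With libraries left out, log2 fold changes in the fit of 8 ranged from -0.0316 to 0.0417 (MCL1), -0.584 to 0.119 (BMF) and -0.00557 to 0.112 (BAD). They ranged from -0.0683 to 0.131 for BCL2L15 and -0.0749 to 0.0649 for BNIP3L, and in pairs 2 to 4 from -0.00539 to 0.253 (BCL2L15). The cause was not tested. Of 200 alternatives of pair differences, 44 moved by more than the SD of pairs 2 to 4. Of the 10 family genes, BBC3 (162 to 306 counts) and BMF (81 to 575) rest on the fewest counts. BCL2L15, outside the 10, had 25 to 38.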
